A study of Mus musculus with 12 samples.

Results

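A set of 9 genes of estrogen signalling was followed across all arrays of mouse hematopoietic stem cells (HSCs). They were 9 of 19935 genes represented on the array by a probe set with a single gene symbol, and each had 1 such probe set. Listed by name, and chosen with earlier results of these data known, they comprised the receptor genes Esr1 and Esr2, the coregulator genes Nrip1, Ncoa1 and Ncoa3, and the target genes Pgr, Greb1, Sgk1 and Igfbp4.

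HSCs, the cells that renew all blood lineages, were sorted by the phenotype CD150+, CD48-, c-kit+, Sca-1+ and lineage-, in lots of 5000 to 7000 cells. The mice were 2 to 3 months old and received a subcutaneous injection of 100 µL of corn oil, with 2 µg of estradiol (E2) or without. The 4 groups were male mice given oil, male mice given E2, female mice given oil and female mice given E2, each with 3 arrays from 3 mice. All mice received the oil vehicle, and for the strain and the time between injection and sort nothing is given in the sources used here.

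Estradiol enters the cell and binds the nuclear receptors ERα, encoded by Esr1, and ERβ, encoded by Esr2, which then act on DNA as dimers at palindromic estrogen response elements. The bound receptor recruits coactivators of the p160 family, among them the products of Ncoa1 and Ncoa3, or coregulators such as the Nrip1 product RIP140, which can repress. Greb1 and Pgr, the gene of the progesterone receptor, are standard readouts of ERα activity in breast and uterus, and HSCs are known to express ERα.

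Array medians were 143 to 159, and precision is set by having 3 arrays a group. Values are linear probe set intensities, and fold changes are on the scale of log2(intensity + 1). No background level comes with them, so the 9967 genes whose mean was above the median of all genes, an intensity of 182, were the ones tested, and lower readings have little signal to measure a change in. Of the 9 genes, Esr1, Nrip1, Ncoa1, Ncoa3, Sgk1 and Igfbp4 were above this filter and Esr2, Pgr and Greb1 below it, so the latter were read from a fit of all 19935 genes without the filter. Sgk1 was above the filter only through its E2 arrays, since the mean of either oil group was below 182.

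Of 10 HSC markers with a probe set, 10 were above the filter, among them Slamf1, Kit and Procr, and Cd48, which the sort removes, read 62.8 to 116 on all arrays. Some markers of other cells differed with treatment, and 0 of them was at an intensity of 0. The summed intensity of 6 of 7 megakaryocyte genes with a probe set was 3129 to 3496 in oil-treated and 2306 to 2658 in E2-treated males, and 3199 to 3429 and 1676 to 2454 in females. Pf4, Gp5, Itga2b, Plek and Ppbp had lower means under E2 in both sexes, with Pf4 at 894 and 405 in males. Arrays of Pf4, Gp5, Itga2b and Plek did not overlap in either sex. Only Gp9 was higher under E2, at 508 to 547 against 626 to 919.6 in males. In females Gp9 had means of 588 and 825, and its arrays overlapped. The sum of 6 T and NK cell genes was 1170.2 to 1378 and 836 to 929.6 in males, and 1115 to 1325 and 917 to 959 in females. That difference lay in Nkg7, a gene of cytotoxic cells, with means of 573 and 165 in males and 495 and 173 in females, whereas Cd3e (258 and 252, 266 and 268) and Cd4 (207 and 202, 198 and 228) were close. Sums for neutrophil and monocyte, erythroid and stromal genes overlapped between oil and E2 in both sexes, but some single genes did not. The collagen gene Col1a2 was higher under E2, at 126 to 166 against 207 to 331 in males and 149 to 175 against 191 to 470.5 in females. Lepr was higher in females, at 23.5 to 30.5 against 37.1 to 61.2, and Csf1r at 69.3 to 73.7 against 77.2 to 104. In males Epor was higher, at 139 to 144 against 149 to 165. Prtn3 was lower in males, at 1241 to 1418 against 992 to 1103. The sums of 4 B cell genes overlapped in males, and were 749.7 to 788 under oil and 574 to 623 under E2 in females. The female difference lay mostly in Cd79b, with means of 559 and 396, the only gene of the 4 above the filter. Cd79a (69 and 61), Ebf1 (42.5 and 40.9) and Pax5 (98.7 and 98.1) were close in females. In males Cd79b was also lower under E2 without overlap, at 519.9 to 723 against 401 to 511. The sum of the 10 HSC markers was also lower under E2, at 13600 to 13673 against 11889 to 12315 in males and 12292 to 13404 against 10393 to 12173 in females. These genes did not all move alike: Slamf1, Kit, Procr, Fgd5, Hoxb5, Meis1 and Gata2 had lower means under E2 in both sexes. Of these, Slamf1, Fgd5, Hoxb5 and Meis1 had arrays that overlapped in females. Mecom had higher means (1217 and 1335 in males, 1145 and 1253 in females), with arrays that overlapped. Hlf (2839 and 2775, 2749 and 2809) and Tek (392 and 407, 402 and 395) were close. The part of these shifts in the values below was not tested. In bulk RNA, a change in the cells sorted and a change in RNA per cell cannot be told apart. The female E2 arrays varied most, with a median SD of 0.16 on the log2 scale against 0.09 to 0.11 in the other groups.

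Neither receptor gene passed. Esr1 read 284, 245 and 249.7 in oil-treated males and 246, 186 and 254 under E2. In females it read 267, 321 and 281 under oil, and 164, 191 and 277 under E2. The groups overlapped in both sexes, with male E2 replicate 2 and female E2 replicates 1 and 2 as the low arrays. The log2 fold change, E2 over oil, was -0.19 ± 0.17 in males (SE, 3 arrays against 3; limma adjusted p = 0.648) and -0.49 ± 0.17 in females (limma adjusted p = 0.134). Averaged over the sexes it was -0.34 ± 0.12, with a 95% confidence interval from -0.60 to -0.08 and a limma adjusted p of 0.0965, so Esr1 did not pass. One array set this: without female E2 replicate 3 the averaged value was -0.45 (limma adjusted p = 0.0103), and the female value -0.70 (limma adjusted p = 0.0173).

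Esr2 stayed below the filter on every array. It read 82.4 to 102 in oil-treated and 87.4 to 103 in E2-treated males, and 91.7 to 104 and 74.9 to 108 in females. Its averaged log2 fold change was -0.0014 ± 0.10 (SE), with an interval from -0.22 to 0.21. A change of Esr2 smaller than that was not detectable at this signal.

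Among the coregulators, Nrip1 and Ncoa3 did not pass in either sex. Nrip1 read 846 to 932 under oil and 816 to 935 under E2 in males, and 822 to 925 and 785 to 1042 in females, with an averaged log2 fold change of -0.0046 ± 0.07 (SE) and an interval from -0.16 to 0.16. Ncoa3, which encodes the p160 coactivator SRC-3, read 390, 408 and 391 in oil-treated males and 409, 453 and 429 under E2. The male groups did not overlap, but only by a narrow gap, and the log2 fold change was 0.12 ± 0.11 (limma adjusted p = 0.661). In females Ncoa3 read 386, 416 and 387 under oil and 365, 361 and 489 under E2, which overlapped.

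Ncoa1, the gene of SRC-1, lay lower under E2. It read 415, 404 and 417 in oil-treated males and 395, 379 and 393 under E2. In females it read 411, 426 and 343 under oil and 320.5, 321 and 349 under E2. Only female oil replicate 3 reached down into the E2 range. The averaged log2 fold change was -0.16 ± 0.06 (SE; limma adjusted p = 0.123), which did not pass, and without female oil replicate 3 it was -0.21 (limma adjusted p = 0.0483).

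**Figure D1:**
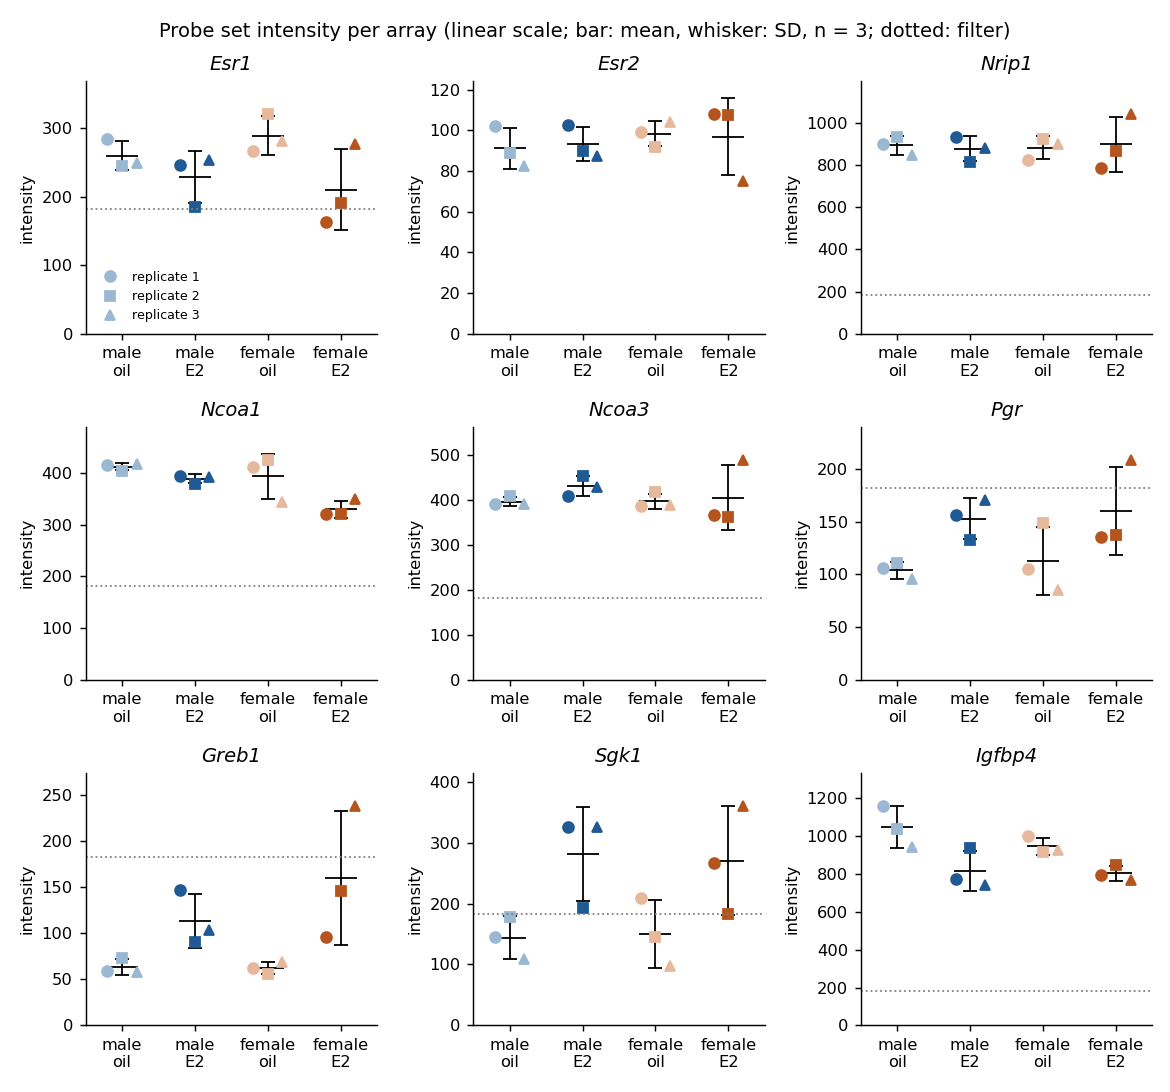
Probe set intensity (linear scale, y axis from 0) of each of the 9 genes in the 4 groups; each point is 1 array with its shape giving the replicate number, the bar is the mean, the whisker the SD of 3 arrays, and the dotted line the filter at 182. Greb1 and Sgk1 sit higher under E2 in both sexes, Igfbp4 sits lower, and Esr2 stays under the filter throughout.

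Greb1 and Sgk1 rose on average, Igfbp4 fell, and Pgr did not pass. Greb1, an ERα cofactor that is itself induced by the receptor, read 59.2, 73.4 and 57.7 in oil-treated males and 146, 90.2 and 103 under E2. In females it read 62.6, 55.5 and 68.4 under oil and 95.7, 146 and 238 under E2. Every E2 array was above every oil array in both sexes, and female E2 replicate 3 was the only array above the filter. Greb1 was 1.75 times the oil level in males (log2 fold change 0.80 ± 0.26, SE; limma adjusted p = 0.313 over all 19935 genes) and 2.39 times in females (1.26 ± 0.26; limma adjusted p = 0.044). Averaged over the sexes it rose by 1.03 ± 0.19, with an interval from 0.63 to 1.43 (limma adjusted p = 0.0092), and it passed in each of the 12 fits that left out 1 array (limma adjusted p from 0.00123 to 0.0299). The female call held in 2 of those 12 fits, without male E2 replicate 1 and without female E2 replicate 1, and the highest adjusted p in the other 10 was 0.165, without female oil replicate 2.

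Pgr read 106, 111 and 95.1 in oil-treated males and 156, 132 and 170.4 under E2, which did not overlap. In females it read 105, 148 and 85.2 under oil and 135, 138 and 209 under E2, and female oil replicate 2 lay inside the E2 range. The log2 fold change was 0.55 ± 0.20 (SE) in males and 0.51 ± 0.20 in females. The averaged value of 0.53 ± 0.14 did not pass without the filter (limma adjusted p = 0.0676). It passed without female oil replicate 2, at 0.64 (limma adjusted p = 0.0252). It also passed with an offset of 16 (adjusted p = 0.0494), with a filter at the 25th percentile (adjusted p = 0.0406) and with a trended robust eBayes (adjusted p = 0.0352).

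Sgk1 encodes a serine/threonine kinase of ion transport and cell survival, and is a textbook target of glucocorticoid and mineralocorticoid receptors as well as a gene that responds to sex steroids. It read 145, 178 and 108 in oil-treated males and 325, 192 and 326 under E2. In females it read 208, 145 and 97.5 under oil and 267, 182 and 361 under E2. The male groups did not overlap, whereas female oil replicate 1 was above female E2 replicate 2. Sgk1 was 1.93 times the oil level in males (log2 fold change 0.95 ± 0.30, SE; limma adjusted p = 0.157) and 1.81 times in females (0.85 ± 0.30; limma adjusted p = 0.136). Averaged over the sexes it rose by 0.90 ± 0.21 (limma adjusted p = 0.0189, or 0.0431 without the filter). With the filter, which Sgk1 passed through its E2 arrays, the call ended in 1 of 12 fits that left out an array, without male E2 replicate 3 (0.84; limma adjusted p = 0.0527). Without the filter it held in 3 of 12, those without male E2 replicate 2 (limma adjusted p = 0.0308), female oil replicate 1 (0.0241) or female E2 replicate 2 (0.0242). In the other 9 the adjusted p was 0.0588 to 0.108, so the Sgk1 call depends on single arrays.

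Igfbp4, which encodes a binding protein that withholds insulin-like growth factors from their receptor, moved the other way. It read 1159.6, 1037 and 943 in oil-treated males and 771, 936 and 741 under E2. In females it read 997, 915 and 923 under oil and 792, 845 and 768 under E2. Neither sex overlapped, though male E2 replicate 2 came within a few units of the lowest oil array. The averaged log2 fold change was -0.30 ± 0.07 (SE; limma adjusted p = 0.0246), so Igfbp4 fell to 0.81 of its oil level, and it did not pass without the filter (limma adjusted p = 0.0646). Leaving out 1 array ended the call in 6 of 12 fits, at male oil replicates 1 and 2 (adjusted p = 0.0574 and 0.053), male E2 replicates 1 and 3 (0.0613 and 0.0669) and female oil replicates 1 and 2 (0.0548 and 0.0513), with log2 fold changes from -0.31 to -0.26.

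**Figure D2:**
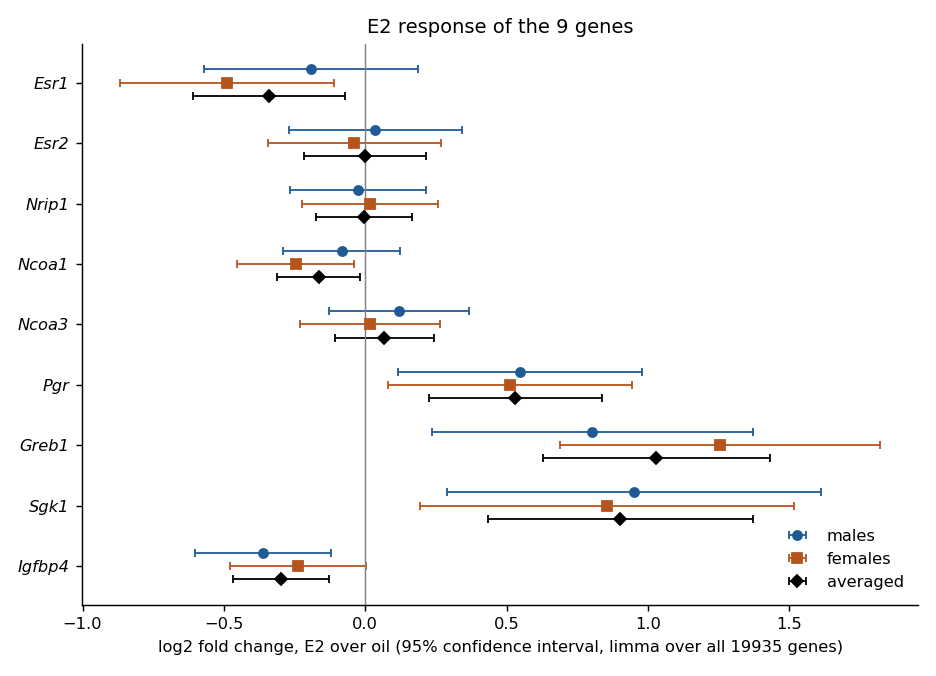
Log2 fold change, E2 over oil (x axis), of the 9 genes (y axis) in males (circles), females (squares) and averaged over the sexes (diamonds), with 95% confidence intervals from limma over all 19935 genes. The averaged intervals of Greb1, Sgk1 and Pgr lie above 0 and those of Igfbp4, Esr1 and Ncoa1 below 0; after adjustment over all genes in this unfiltered fit only Greb1 (1.03) and Sgk1 (0.90) passed on average.

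The counts read as follows. In males 0 of the 6 genes above the filter passed in limma's test, where 1.43% of all genes tested were called. In females 0 of 6 passed, against 3.56% of all genes. At an unadjusted limma p under 0.05 there were 2 of the 6 in males and 4 in females. The share of all genes at that threshold was not computed, so nothing is read from those counts. Averaged over the sexes 2 of 6 passed, Sgk1 higher and Igfbp4 lower, against 8.9% of all genes; nothing is read from this count, since Sgk1 was among the 6 only through its E2 arrays. In the fit without the filter, 0 of 9 passed in males (0.401% of all genes), Greb1 alone in females (0.918%), and Greb1 and Sgk1 on average (2.85%). The median averaged log2 fold change was -0.0014 over the 9 genes and 0.01 over all 19935. The 9 genes were chosen with earlier results of these data known, so their counts are not weighed against the shares of all genes.

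Overlap was also read, from the same arrays as the tests. E2 and oil arrays did not overlap for 6 of the 9 genes in males, where the same held for 18.1% of all genes. The 6 were Pgr, Greb1, Ncoa3 and Sgk1, which read higher, and Ncoa1 and Igfbp4, which read lower. In females 2 of 9 did not overlap, Greb1 higher and Igfbp4 lower, against 17.2% of all genes. These were also the 2 genes without overlap and with the same direction in both sexes, which 4.27% of all genes showed. Since the 9 genes were chosen with earlier results of these data known, nothing is read from these counts against the shares.

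The sexes were compared directly. The female response minus the male response was 0.45 ± 0.37 on the log2 scale for Greb1 (SE; limma adjusted p = 0.965), with an interval from -0.35 to 1.25, and -0.09 ± 0.42 for Sgk1 (limma adjusted p = 0.988), from -1.01 to 0.82. For Esr1 it was -0.30 ± 0.24 (limma adjusted p = 0.954), from -0.81 to 0.22. Single arrays moved these values: with 1 left out, Greb1 ranged from 0.12, without female E2 replicate 3, to 0.77, without female E2 replicate 1, and Esr1 from -0.51 to -0.13, without the same arrays. By limma 0 of 6 genes above the filter differed in response, against 0.01% of all genes, and 0 were at an unadjusted p under 0.05. The intervals are wide enough to hold sizeable differences. Under oil, female minus male was 0.15 ± 0.17 for Esr1 and -0.14 ± 0.10 for Igfbp4. By limma 0 of 6 differed between the sexes under oil, against 0.0401% of all genes, and 0 were at an unadjusted p under 0.05.

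**Figure D3:**
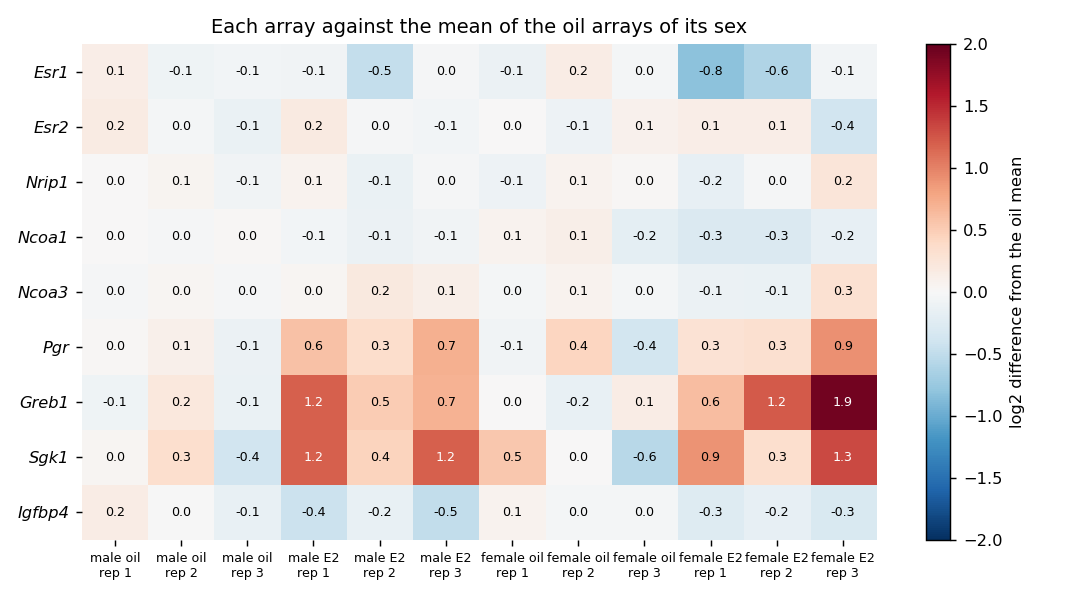
Log2 difference of each array (columns, by group and replicate) from the mean of the oil arrays of its sex, for the 9 genes (rows); red is higher, blue lower, and each cell gives its value. Greb1, Sgk1 and Pgr are above 0 on all 6 E2 arrays and Igfbp4 is below 0 on all of them, and the E2 arrays of one sex differ among themselves in how far they moved.

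The E2 arrays did not move evenly. Among males, replicate 2 had the lowest Greb1, Pgr and Sgk1 and the highest Igfbp4 of the E2 arrays. Relative to the male oil mean it stood 0.51 higher for Greb1 and 0.44 higher for Sgk1, where replicate 1 stood 1.20 and 1.20 higher. Among females, replicate 3 had the highest Greb1, Pgr and Sgk1, at 1.93, 0.92 and 1.33 above the oil mean, and the lowest Igfbp4. The same array read highest in its group for Esr1, Nrip1, Ncoa1 and Ncoa3 and lowest for Esr2. Without that array the averaged value of Greb1 was 0.86 (limma adjusted p = 0.00722, no filter). That of Sgk1 was 0.78, which passed with the filter (limma adjusted p = 0.0304) but not without it (0.0708).

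Sequence before the transcription starts was examined for Greb1 and Sgk1 because they rose on average. RefSeq promoter windows of GRCm38.p6, from 250 bases before to 50 bases after a start, were at hand for 8 of the 9 genes, 16 windows in all. The full estrogen response element GGTCANNNTGACC, read on both strands, was in 0 of the 16 windows and in 0.07% of 32851 windows of all genes. The hexamer AGGTCA, an arm of that element with 1 base added, was in 3 of 16, against 16.3% of all windows. Of the 3, 1 was a window of Greb1 and 2 were of Sgk1. The shorter GGTCA, the arm itself, lies within both of the former. It was in 10 of 16, in windows of Sgk1, Greb1, Esr1, Esr2 and Nrip1, against 40.5%. Since 6 of the 16 windows are of Sgk1, these shares do not count the genes evenly. The glucocorticoid response element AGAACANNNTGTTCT, a palindrome that the glucocorticoid, mineralocorticoid, progesterone and androgen receptors can all bind, was in 1 of 16, an Sgk1 window, and in 0.00913% of all windows, which is 3 windows. The palindromes GGTCANNNTGNCC and GGACANNNTGTCC and the AP-1 motif TGACTCA were in 0 of 16, against 0.335%, 0.0274% and 5.2%, and the GC box GGGCGG was in 5 of 16, against 35.7%. A match describes letters in these windows and says nothing of binding, and distal elements lie outside them.

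The Sgk1 stretch is shown for its glucocorticoid element, in capitals, 189 to 175 bases before the start, at chr10:21993701-21993715. The Greb1 stretches, from its annotated upstream and downstream starts, are shown for these short matches, in capitals: TGACCT, which is AGGTCA on the other strand, 88 to 83 bases before the first start, and GGTCA 194 to 190 and 85 to 81 bases before the second. Each is the 250 bases before a start, 5′ to 3′ on the strand of the gene.

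Sgk1, chr10:21993640-21993889, plus strand: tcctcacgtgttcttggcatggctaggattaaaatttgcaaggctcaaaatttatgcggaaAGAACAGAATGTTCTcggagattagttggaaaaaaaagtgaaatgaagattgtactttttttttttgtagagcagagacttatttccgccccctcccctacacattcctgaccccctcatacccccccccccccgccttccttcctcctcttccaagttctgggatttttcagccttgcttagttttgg

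Greb1 upstream start, chr12:16800887-16801136, minus strand: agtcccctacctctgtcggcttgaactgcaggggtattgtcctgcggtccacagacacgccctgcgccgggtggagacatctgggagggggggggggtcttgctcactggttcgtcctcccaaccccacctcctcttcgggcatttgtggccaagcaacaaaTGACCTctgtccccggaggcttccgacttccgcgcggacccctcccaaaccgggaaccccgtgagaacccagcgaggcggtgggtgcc

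Greb1 downstream start, chr12:16757240-16757489, minus strand: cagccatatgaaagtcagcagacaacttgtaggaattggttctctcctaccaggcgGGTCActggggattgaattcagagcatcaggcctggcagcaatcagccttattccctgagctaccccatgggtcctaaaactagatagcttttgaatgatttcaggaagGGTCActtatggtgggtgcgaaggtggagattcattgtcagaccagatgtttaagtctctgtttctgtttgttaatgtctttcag

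Other genes of the pathway were read from 9 lists, holding 168 genes, of which 153 had a probe set of their own and 106 were above the filter. Averaged over the sexes, 2 rose and 14 fell. Without the filter Ncoa2, Kat2b, Bcor, Jun, Dusp1, Nfkbia and Foxo3 did not pass on average (limma adjusted p from 0.0502 to 0.118). The lists were chosen with earlier results of these data known, so their share of calls is not set against that of all genes. The median log2 fold change over all genes tested was -0.01.

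Of 26 further coactivator genes tested, 0 rose, 5 fell and 21 did not pass, with a median of -0.07. Pnrc1, a small nuclear receptor coactivator, fell by 0.38 ± 0.07 on the log2 scale (SE; limma adjusted p = 0.00476), and Crebbp, the histone acetyltransferase CBP, fell by 0.29 ± 0.05 (limma adjusted p = 0.00626). Ncoa4 fell by 0.28 (limma adjusted p = 0.0109), and all 3 passed in each of 12 fits that left out 1 array. The acetyltransferase gene Kat2b at -0.27 (limma adjusted p = 0.0257) passed in 8 of those fits, and Ncoa2, the third p160 gene, at -0.21 (limma adjusted p = 0.0462) in 2. In females alone all 5 of these passed and in males alone 0 of 26 did. Without the filter 1 of the 5 female calls held, Ncoa4 (limma adjusted p = 0.044), and the others had adjusted p-values of 0.0524 to 0.117. The difference between the sexes was not tested for the list. Crebbp read 1346 ± 32.1 under oil and 1162 ± 33.4 under E2 in males (mean ± SD, n = 3), and 1332 ± 63.4 and 1038 ± 56.2 in females.

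Of 14 corepressor genes tested, Bcor at -0.22 fell (limma adjusted p = 0.028, in 7 of 12 fits that left out 1 array) and 13 did not pass. Ncor1 had no probe set with a single symbol and is not analysed here. Of 11 chaperone genes of the receptor complex, such as Hsp90aa1 and Fkbp4, 0 passed, and their median was 0.10. Of 4 genes tested in the list of other steroid and estrogen-related receptors, which is not confined to steroid receptors, 0 passed. Among them was the glucocorticoid receptor gene Nr3c1 at -0.05 (limma adjusted p = 0.618). The estrogen-related receptor gene Esrra lay below the filter. Of 5 genes of estrogen synthesis and metabolism, the sulfotransferase gene Sult1a1 fell by 0.45 ± 0.10 (SE; limma adjusted p = 0.0169) and 4 did not pass. Of 5 partner factors, Runx1 at -0.26 (limma adjusted p = 0.0117) and Jun at -0.86 (limma adjusted p = 0.0485, in 3 of 12 fits that left out 1 array) fell. Part of the averaged size for Jun rested on 1 array, as the female E2 arrays read 419.8 to 1521. Without female E2 replicate 1 the averaged value was -0.57 (limma adjusted p = 0.0101). In males Jun read 566 to 930 under oil and 329 to 403 under E2, without overlap, and it did not pass in males alone.

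Of 22 other classic receptor targets tested, 2 rose, 0 fell and 20 did not pass, with a median of -0.0075. In females alone the same 2, Vegfa and Igf1, passed and Ctsd, the gene of the protease cathepsin D, fell by 0.38 (limma adjusted p = 0.0471). Vegfa, the gene of the vascular growth factor VEGF-A, read 371 ± 71.7 under oil and 490.3 ± 57.3 under E2 in males (mean ± SD, n = 3), and 344 ± 44.1 and 733 ± 190 in females. It rose by 0.74 ± 0.13 on average (SE; limma adjusted p = 0.00391). Igf1, insulin-like growth factor 1, rose by 0.32 ± 0.06 (limma adjusted p = 0.00873), from 204 ± 15.5 to 225 ± 15.6 in males, whose arrays overlapped, and from 145 ± 12.7 to 203 ± 3.18 in females. Its E2 arrays helped Igf1 above the filter, since the female oil mean was below 182. Without the filter the averaged Igf1 call held (limma adjusted p = 0.0272). The cell cycle target Ccnd1 at 0.30 (limma adjusted p = 0.0988) and Myc at -0.07 (limma adjusted p = 0.628) did not pass. Igf1 and Igfbp4 act in one axis as ligand and binding protein, and of 5 further genes of that axis above the filter, 0 passed. Igfbp7 lay below it.

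Of 14 tested in the list of SGK family and glucocorticoid-responsive genes, 0 rose, 5 fell and 9 did not pass, with a median of -0.12. Ndrg1, whose protein the SGK1 kinase phosphorylates, fell by 1.29 ± 0.10 (SE; limma adjusted p = 1.34e-05). The transcription factor gene Klf9 fell by 0.34 ± 0.07 (limma adjusted p = 0.00694), and both passed in each of 12 fits that left out 1 array. Nfkbia at -0.40 (limma adjusted p = 0.0201), Dusp1 at -0.85 (0.024) and Foxo3 at -0.25 (0.0475) passed in 9, 6 and 1 of them. Tsc22d3, the glucocorticoid-induced leucine zipper, had a log2 fold change of -0.0099 (limma adjusted p = 0.947), Fkbp5 one of 0.19 (0.175) and the related kinase gene Sgk3 one of 0.07 (0.65).

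**Figure D4:**
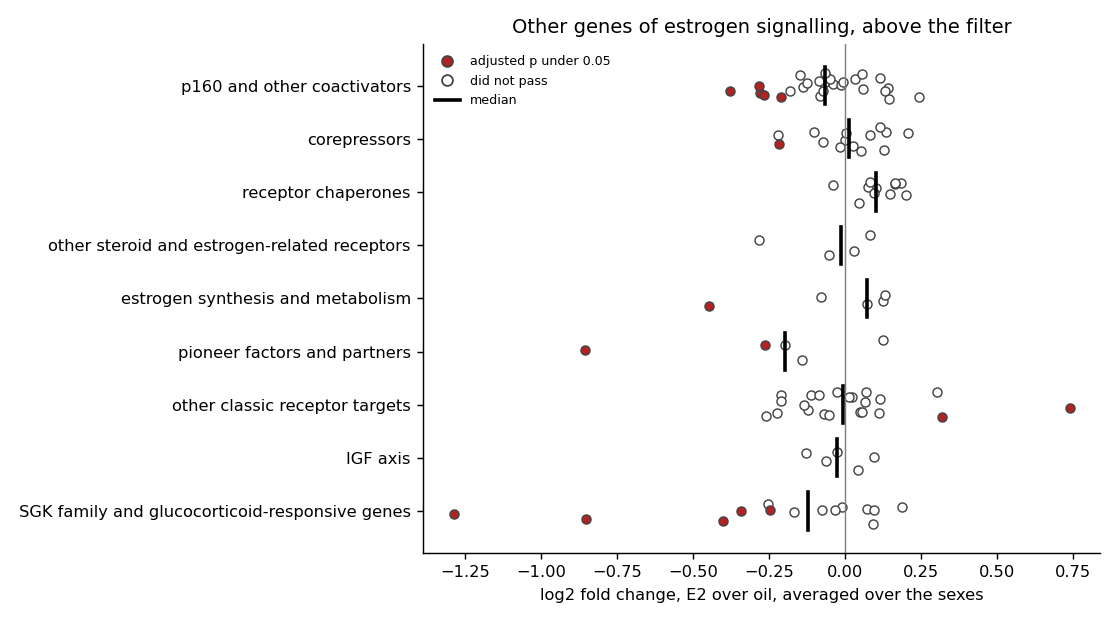
Averaged log2 fold change, E2 over oil (x axis), of the 106 genes above the filter in 9 lists (y axis, genes spread vertically for visibility); filled points passed at an adjusted p under 0.05, open points did not, and bars are list medians. Filled points lie left of 0 except Vegfa (0.74) and Igf1 (0.32), and the leftmost is Ndrg1 (-1.29).

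Finally, genes with a profile like that of Esr1, Sgk1 or Igfbp4 were sought among 9455 named genes above the filter, by the root mean square difference of log2 values over 12 arrays after each gene was centred on its own mean. For Sgk1 the nearest were Nrg4, Fads2 and Coro2a, at 0.30, 0.31 and 0.32 on the log2 scale. Nrg4, an epidermal growth factor family ligand, had an averaged log2 fold change of 0.74, Fads2, a fatty acid desaturase, one of 1.00, and Coro2a, a coronin, one of 0.75. For Igfbp4 they were Sbsn, Dip2b and Sap30l, at 0.07, 0.09 and 0.09. For Esr1 they were Mettl27, Ypel3 and Gbp5, at 0.11, 0.12 and 0.12.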

How the data were processed

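RNA of sorted HSCs was amplified and biotin-labelled with NuGEN kits and hybridised to Affymetrix Mouse Gene 1.0 ST arrays. The authors deposited linear intensity values for 35474 probe sets on 12 arrays; for summarisation, background correction, normalization and software, nothing is given in the sources used here. Gene symbols came from the platform annotation, with 21780 probe sets having 1 symbol, 1605 several and 12089 none. Where a gene had several probe sets, the one of highest mean was used, and log2(intensity + 1) was analysed.

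Groups and the replicate numbers followed the sample titles. limma 3.58.1 (R 4.3.3) fitted 1 mean per group to all 12 arrays, with eBayes (8 residual and 5.38 prior degrees of freedom), on the 9967 genes above the median and, for genes below it, on all 19935 genes. P-values were 2-sided and adjusted by Benjamini-Hochberg over all genes tested, and a gene was called under 0.05. Steps were tested on simulated data.

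The members and gene lists were chosen with earlier results of these data known, and the motifs after the values were seen. Named genes were the members, up to 6 called genes per list, 8 set by name, of which 1 is not reported here, and 3 nearest profiles, clones skipped; Nr3c1, Ccnd1 and Myc were named after their values were seen. Fits were repeated with no filter or one at the 25th percentile, median centring or quantile normalization, an offset of 16, averaged probe sets, a trended robust eBayes, array weights, only the groups compared, a replicate block, and each array left out. Motif searches used Python 3.11.15 and pandas 2.3.3, and plots matplotlib 3.10.9.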

Additional observations from a re-analysis of the deposited data

How the results depend on the processing

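Of 540 member log2 fold changes with 1 array left out, 470 kept direction and side of the threshold, as did 395 of 412 under the other settings. Without the filter, 80 genes were called in males, 183 in females, 568 on average and 7 between the sexes under oil, and 1 member in females. Array weights gave 409, 226 and 7 in males, females and between the sexes under oil. The compared groups alone gave 390, 67 and 7, and 1 member in males, Sgk1. The cause was not tested. With 1 array left out, genes called ranged from 62 to 327 in males, 115 to 549 in females, 476 to 1147 on average, 1 to 2 for the difference in response and 2 to 8 under oil, and members called from 0 to 3 on average and 0 to 1 in females.

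Directions reversed for values near 0. Median centring gave Nrip1 0.0051 in males, -0.038 in females, -0.043 for the difference in response and 0.024 between the sexes under oil, and Ncoa3 -0.039 in females. Array weights gave averaged values of 0.0085 for Nrip1 and 0.0091 for Esr2. With no filter and 1 array left out, chosen after seeing the data, Nrip1 averaged 0.011, 0.021, 0.013, 0.0029, 0.041 and 0.0056 without male oil 2, male E2 2, female oil 2, female oil 3, female E2 1 and female E2 2, and Igfbp4 passed in 1 of 12 fits (limma adjusted p from 0.0393 to 0.155). Greb1 between the sexes under oil was 0.013 with quantile normalization and 0.017 with median centring. With 1 array left out, Nrip1 ranged from -0.073 to 0.024 in males, -0.095 to 0.11 in females, -0.061 to 0.041 on average, -0.068 to 0.14 for the difference and -0.057 to 0.031 under oil. Esr2 ranged from -0.035 to 0.12, -0.13 to 0.13, -0.045 to 0.085 and -0.16 to 0.099 in the first 4 of these. Ncoa3 ranged from -0.13 to 0.092 in females, -0.0040 to 0.11 on average and -0.034 to 0.022 under oil. For the difference, Sgk1 ranged from -0.37 to 0.17 and Pgr from -0.24 to 0.18. Under oil, Ncoa1 ranged from -0.13 to 0.023, Sgk1 from -0.25 to 0.30, Pgr from -0.13 to 0.26 and Greb1 from -0.097 to 0.082.

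Greb1 in females did not pass with quantile normalization (1.18; limma adjusted p = 0.0695), with the compared groups alone (adjusted p = 0.196) or with a replicate block (adjusted p = 0.0775). Deviations of samples with the same number correlated from -0.263 to 0.203. Samples with different numbers were not compared, so these values cannot decide whether the numbers pair the samples. With the replicate block 103 genes were called in males, 258 in females and 736 on average. On average Sgk1 (limma adjusted p = 0.0238) and Igfbp4 (0.0279) still passed with the filter, and Greb1 (0.0192) without it. Sgk1 is above the filter only through its E2 arrays. Signal limits Esr2, Pgr and Greb1, which lie below the filter.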
